A study of Mus musculus with 12 samples.

Results

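The Notch pathway was followed through the developing mouse cochlea by 10 of its genes, chosen by name from the 24489 genes of the count table. They are 3 receptors (*Notch1*, *Notch2*, *Notch3*), 4 ligands (*Dll1*, *Dll3*, *Jag1*, *Jag2*) and 3 target genes of the HES and HEY type (*Hes1*, *Hes5*, *Hey1*). Single reporter-positive cells of the cochlea were sorted into 12 plates, and their mRNA was sequenced with the full-length Smart-seq2 protocol. There were 3 plates of E16.5, 1 of E17.5, and 2 of every other stage (E14.5, E15.5, E18.5, P3). The labels give PVcre;Ai14 for all plates but replicate 2 of E14.5, which is labelled TrkCcre with no reporter named. The study's methods instead give the TrkC driver for all embryos of that stage, so replicate 1 of E14.5 is uncertain, and the Cre driver may change together with age in every comparison with E14.5. PVcre places Cre under the control of the parvalbumin gene, TrkCcre under that of the gene for the neurotrophin-3 receptor, and Ai14 is an allele that makes tdTomato after Cre has acted. The tissue was the dissected spiral ganglion, or at E14.5 and E15.5 the region of the modiolus around it. No treatment or mutant is part of the design, every plate pools several animals, and cells of any type in which the reporter was on could enter the sort.

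Notch receptors sit in the membrane and bind ligands of the Delta and Jagged families on a neighbouring cell. Binding leads to cleavage of the receptor, and its intracellular part moves to the nucleus, where it joins the DNA-binding protein RBPJ and switches on genes such as those of the HES and HEY repressors. In the inner ear the pathway is best known for lateral inhibition, by which cells that become hair cells or neurons, and carry Delta ligand, keep their neighbours from the same fate. JAG1 and NOTCH1 also take part in setting up the prosensory region of the cochlea, and in nerves Notch signalling acts in glial precursors.

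*Hes1* and *Hes5* are both textbook targets of the pathway, and they had unlike patterns in these cells. The stretch in front of *Hes5* is shown because it is the only one among the promoters found for these genes that holds TGGGAA, the core of the sequence that RBPJ binds. It runs over chr4:154960673-154960922 on the plus strand (RefSeq, GRCm38.p6), 250 bases up to the start of the gene, and the capitals mark TGGGAA or its reverse complement.

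*Hes5*: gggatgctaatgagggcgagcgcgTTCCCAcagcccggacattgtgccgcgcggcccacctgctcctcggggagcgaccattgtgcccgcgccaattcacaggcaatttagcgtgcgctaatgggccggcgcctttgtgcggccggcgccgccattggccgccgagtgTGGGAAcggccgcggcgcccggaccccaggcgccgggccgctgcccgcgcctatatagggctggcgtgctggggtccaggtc

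The first match lies on the minus strand with its outer base 226 bases before the start, and the second on the plus strand 82 bases before it. Over 32851 mouse promoters of the same length, 21.6% hold TGGGAA on either strand and 2.77% hold it 2 or more times. Promoters were found for 8 of the 10 genes, and *Hes1* and *Hey1* are not among them. A match of letters is a description and does not show binding.

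In the mm10 genome (GENCODE vM21) the receptor genes are *Notch1* on chromosome 2 from 26457903 to 26516663 (minus strand), *Notch2* on chromosome 3 from 98013527 to 98150361 (plus) and *Notch3* on chromosome 17 from 32120820 to 32166852 (minus). The ligand genes are *Dll1* on chromosome 17 from 15367354 to 15376872 (minus), *Dll3* on chromosome 7 from 28293553 to 28302238 (minus), *Jag1* on chromosome 2 from 137081456 to 137116644 (minus) and *Jag2* on chromosome 12 from 112907819 to 112929776 (minus). The target genes are *Hes1* on chromosome 16 from 30064384 to 30067796 (plus), *Hes5* on chromosome 4 from 154960923 to 154962371 (plus) and *Hey1* on chromosome 3 from 8663359 to 8667256 (minus). Values are read counts per gene, and whether strand was used is not given in the sources used here. Exons of *Notch1*, *Notch2*, *Notch3*, *Dll1* and *Hes5* overlap those of another annotated gene, in 4 of these 5 genes on the other strand, so some of their reads may belong to the neighbour.

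Of 4608 wells, 4226 were kept as cells, with 80997594 to 303906928 counts per plate. Clusters were named from markers, without the Notch genes among the features, as spiral ganglion neurons (SGN-like, 2309 cells), glia (glia-like, 1130), otic mesenchyme (OM-like, 575) and hair cells (HC-like, 74), and 138 cells stayed unnamed. P3 plates held SGN-like cells alone, and HC-like cells were found at E17.5 (5 cells) and E18.5 (37 and 32 cells). Each plate gave 1 sum of counts for a class, and levels are that sum's CPM (counts divided by the total and scaled alike for every sum) after TMM scaling. All SGN markers were found in every SGN-like sum and all glial markers in every glia-like sum used, whereas *Col1a1* was at 0 in the OM-like sum of E16.5 replicate 1. The 5 glia-like cells of E18.5 replicate 1 had a median of only 32721 counts. Their median of summed glial markers per cell was 306 CPM, against medians of 4887 to 10046 CPM in the other glia-like sums used. SGN-like cells of that plate had a median of 2121 CPM.

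Several sums stood apart and are named wherever a result rests on them. Summed glial markers reached 15.8 to 99.8 CPM in the SGN-like sums of the plates labelled SS2_20, 505 and 621 CPM in E16.5 replicates 2 and 1, 2318 and 2322 CPM at E18.5, and 2492 and 2873 CPM at P3. In reverse, the few glia-like and OM-like cells of E16.5 replicates 1 and 2 and of E18.5 replicate 1 (5 to 17 cells a sum) carried 3345 to 7002 CPM of SGN markers, against 38.3 to 159 CPM on the SS2_20 plates. Glial markers in OM-like sums reached 2419 CPM in E16.5 replicate 1 and 4211 CPM in E18.5 replicate 1, against 21.8 to 241 CPM on the SS2_20 plates. HC-like sums carried 3691 to 8175 CPM of hair cell markers next to 4930 to 8467 CPM of markers of the cochlear epithelium. Plates of the same stage share their labels but no further link is given, so p-values measure the spread between plates.

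Divided by exon length, the order of levels differed between the classes. In glia-like sums the highest were *Hey1* (36.1 ± 10.4 CPM per kb, SD, n = 9), *Notch1* (33.3 ± 13.1), *Hes1* (30.4 ± 18.8) and *Jag1* (28.5 ± 9.68), which lie within a SD of each other. In OM-like sums *Hes1* came first (47.6 ± 21.2 CPM per kb, n = 9), above *Notch2* (17.1 ± 8.26) and *Notch1* (12.8 ± 4.85), which overlap. In HC-like sums *Jag1* came first (107 ± 51.9 CPM per kb, n = 3), and *Hey1*, *Jag2*, *Dll3* and *Dll1* followed at 32.8, 31.8, 30.4 and 25.8, closer together than their spread. *Jag1* was not first in every kind of HC-like cell. In the sub-cluster with outer hair cell markers at E18.5 it was at 39.6 and 47.2 CPM per kb, below *Dll3* at 133.1 and 114.1, while in an unnamed sub-cluster it was at 176 and 142.6. In embryonic SGN-like sums no gene passed 10 CPM per kb, with *Hey1* (7.27 ± 4.18, n = 10) and *Jag2* (6.00 ± 1.26) first and *Notch3* (0.657 ± 0.362) last.

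**Figure D1:**
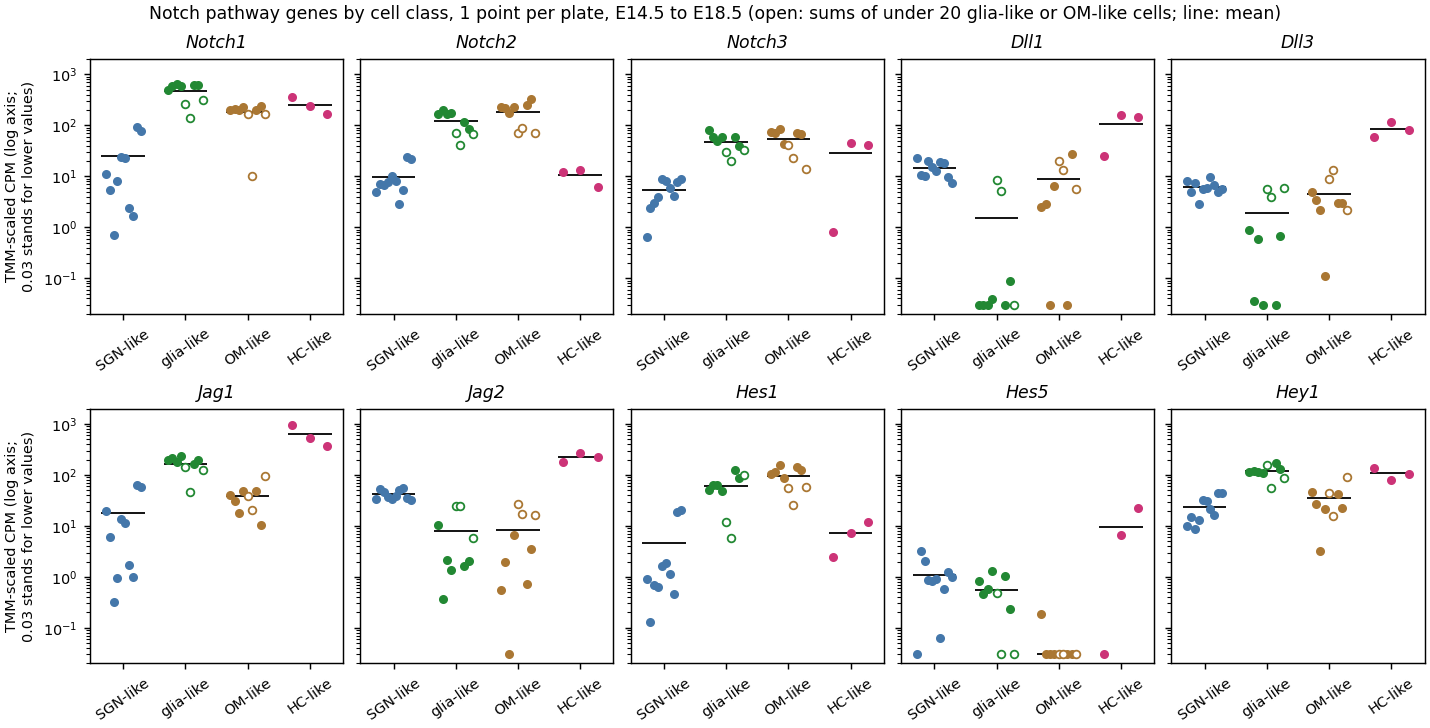
Levels of the 10 genes in each class, 1 point per plate from E14.5 to E18.5, as TMM-scaled CPM on a log axis; lines are means, open points are sums of fewer than 20 glia-like or OM-like cells, and values under 0.03 are drawn at 0.03. *Notch1* sat between 487 and 639 CPM in the 6 glia-like sums of the SS2_20 plates, while *Dll1* was at or near 0 there.

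The first question was how the cell classes of a plate divide the pathway between them. Against SGN-like cells of the same plates, glia-like cells had more mRNA of the 3 receptors, of *Jag1*, *Hes1* and *Hey1*, and less of *Dll1*, *Dll3* and *Jag2*. Of the 10 genes 6 were higher and 3 lower in glia-like cells, where 46.4% of all 16859 genes tested differed (22.4% higher, 23.9% lower; edgeR quasi-likelihood test, Benjamini-Hochberg adjusted p under 0.05). The median log2 fold change was 2.85 over the 10 genes and 0.00 over all genes tested.

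*Notch1* was the receptor with the widest difference between glia-like and SGN-like cells, and *Notch2* that between OM-like and SGN-like cells. Over plates it ran from 138 to 639 CPM in glia-like sums (median 585, n = 9), from 10.3 to 245 CPM in OM-like sums (median 203, n = 9) and from 0.692 to 93.1 CPM in embryonic SGN-like sums (median 9.59, n = 10). Glia-like and SGN-like sums did not overlap, and on the SS2_20 plates none of these 3 classes overlapped. The log2 fold change of glia-like against SGN-like cells was 4.81 ± 0.86 (SE; adjusted p = 0.000135), and that of OM-like against SGN-like cells 3.42 ± 0.85 (adjusted p = 0.00244).

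*Notch2*, a receptor closely related to *Notch1*, ran from 70.6 to 323 CPM in OM-like sums (median 222), from 41.9 to 200 CPM in glia-like sums (median 115) and from 2.85 to 23.5 CPM in SGN-like sums (median 7.28). OM-like and glia-like sums overlapped with each other and neither overlapped with SGN-like sums. On the log2 scale the difference from SGN-like cells was 4.29 ± 0.48 for OM-like (adjusted p = 1.33e-06) and 3.61 ± 0.47 for glia-like cells (adjusted p = 4.66e-06).

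*Notch3*, best known in the mural cells of blood vessels, followed the same order with smaller values. It ran from 13.8 to 86.4 CPM in OM-like sums, from 20.1 to 79.4 CPM in glia-like sums and from 0.656 to 8.996 CPM in SGN-like sums. The log2 fold change was 3.43 ± 0.57 for OM-like (adjusted p = 6.82e-05) and 3.16 ± 0.56 for glia-like cells (adjusted p = 0.000127). Markers of mural cells summed to 67.1 to 577 CPM in OM-like sums and 13.3 to 78.8 CPM in glia-like sums, and 3 or more of the 5 stood above 20 CPM in 11 of 575 OM-like cells. Without cells that carried markers of another type *Notch3* was still called in both comparisons.

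Ligands divided the classes in both directions. *Jag2*, a Jagged ligand best known from hair cells, ran from 32.6 to 56.5 CPM in embryonic SGN-like sums (median 37.7), from 0.360 to 24.7 CPM in glia-like sums (median 2.10) and from 0 to 27.0 CPM in OM-like sums (median 3.56). SGN-like sums lay above those of both other classes. The log2 fold change against SGN-like cells was -3.60 ± 0.75 for glia-like (adjusted p = 0.000545) and -3.58 ± 0.75 for OM-like cells (adjusted p = 0.000584). The highest glia-like and OM-like values, 24.7 and 27.0 CPM, came from E16.5 replicate 1, a plate on which both classes carried SGN markers. The part of that RNA in the result was not tested, and on the SS2_20 plates alone the log2 fold change of glia-like cells was -4.36.

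*Dll1*, the Delta ligand of lateral inhibition, was read in SGN-like cells of every embryonic plate, at 7.44 to 22.8 CPM (median 13.96). In glia-like sums it was at 0 in 5 of 9 plates, at 0.0389 and 0.0866 CPM in 2, and at 8.46 and 5.199 CPM in E16.5 replicates 1 and 2. The log2 fold change of glia-like against SGN-like cells was -6.92 ± 1.45 (adjusted p = 0.000548), a fitted value that depends on how zeros are treated. *Dll3*, a Delta-like protein that acts inside the cell making it, was lower as well (-3.27 ± 0.86, adjusted p = 0.00358), with 2.88 to 9.65 CPM in SGN-like and 0 to 5.77 CPM in glia-like sums.

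*Jag1*, the Jagged ligand of prosensory and supporting cells, went the other way. It ran from 47.1 to 235 CPM in glia-like sums (median 177), from 10.498 to 93.7 CPM in OM-like sums (median 39.0) and from 0.320 to 64.4 CPM in SGN-like sums (median 8.82). The upper end of the SGN-like range came from the E18.5 plates and overlapped with the other classes. The difference on the log2 scale was 4.16 ± 0.81 for glia-like (adjusted p = 0.000286) and 1.85 ± 0.74 for OM-like cells (adjusted p = 0.0463), and the second call was lost when any of 6 plates was left out.

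*Hes1*, a target that holds back neuronal differentiation, ran from 26.0 to 156 CPM in OM-like sums (median 104), from 5.85 to 123 CPM in glia-like sums (median 64.0) and from 0.129 to 20.9 CPM in SGN-like sums (median 1.00). OM-like sums did not overlap with SGN-like ones, and the lowest glia-like value came from the 9 cells of E16.5 replicate 2. Against SGN-like cells it differed on the log2 scale by 5.78 ± 0.72 for OM-like (adjusted p = 3.45e-06) and 4.84 ± 0.70 for glia-like cells (adjusted p = 1.57e-05).

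*Hey1*, a HEY repressor known from vessels and from the prosensory epithelium, split glia from mesenchyme. It ran from 56.5 to 171 CPM in glia-like sums (median 116), from 3.20 to 89.9 CPM in OM-like sums (median 27.5) and from 8.74 to 45.2 CPM in SGN-like sums (median 18.6). Glia-like and SGN-like sums did not overlap, while OM-like sums overlapped with both. The overlap with glia-like sums came from small sums such as the 6 OM-like cells of E18.5 replicate 1 (89.9 CPM), and with at least 10 cells per sum OM-like sums reached 47.3 CPM and glia-like sums began at 109.9 CPM. Against SGN-like cells it differed on the log2 scale by 2.53 ± 0.38 for glia-like cells (adjusted p = 2.46e-05) and 0.51 ± 0.37 for OM-like cells (adjusted p = 0.277).

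*Hes5*, the target whose promoter is printed above, was low in these 3 classes. It stayed at or under 3.28 CPM in SGN-like sums and 1.30 CPM in glia-like sums, and in OM-like sums it was at 0 in 8 of 9 plates and at 0.184 CPM in the other, from 8 reads in 1 cell. The log2 fold change of glia-like against SGN-like cells was -0.98 ± 0.98 (adjusted p = 0.437). That of OM-like against SGN-like cells was -5.65 ± 1.39 (adjusted p = 0.00221), again a fitted value that depends on how zeros are treated.

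Of the 10 genes 7 were called in OM-like against SGN-like cells, 5 higher and 2 lower, where 46.0% of all genes tested were called (21.8% higher, 24.2% lower). All 9 calls of glia-like against SGN-like cells held in every alternative tried. Glial RNA in SGN-like cells moved with the size of these differences. With SGN-like cells under 100 CPM of glial markers alone, where 48.7% of all genes were called, the log2 fold change of glia-like cells was 7.13 for *Notch1*, 4.77 for *Notch2*, 6.13 for *Jag1*, 5.97 for *Hes1* and 2.84 for *Hey1*.

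**Figure D2:**
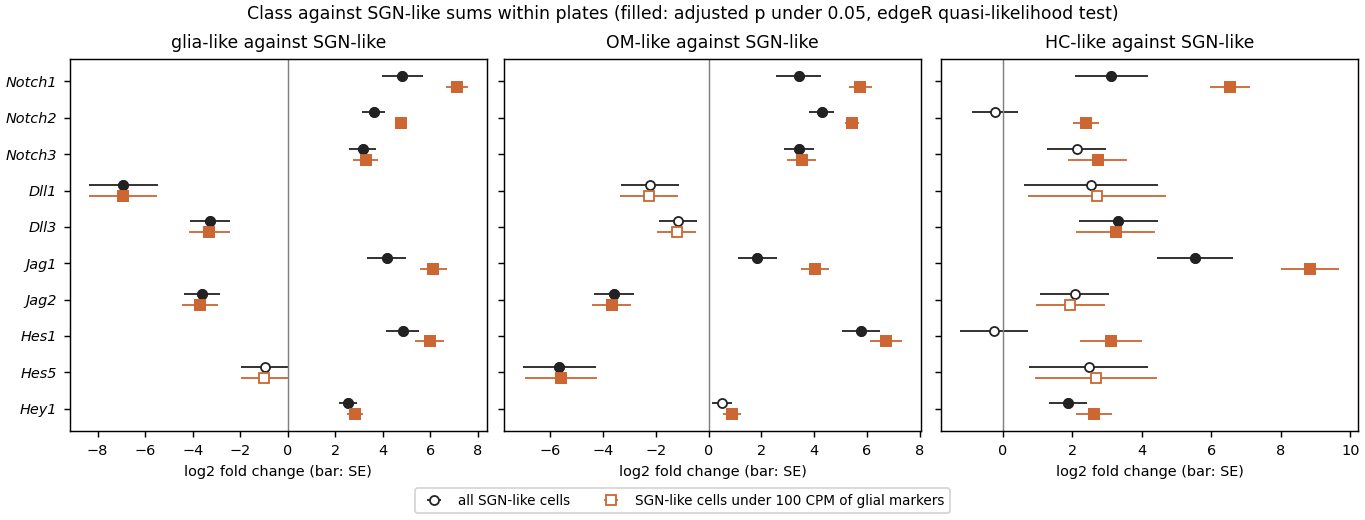
Log2 fold changes (± SE) of glia-like, OM-like and HC-like against SGN-like cells for the 10 genes, with filled points for an adjusted p under 0.05; black takes all SGN-like cells and orange those under 100 CPM of glial markers. *Notch1* in glia-like cells moved from 4.81 to 7.13 between both choices.

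After every cell was thinned to 100000 reads, the share of single cells with a read gave the same split up to E17.5. *Notch1* was read in 95.5% to 97.9% of glia-like cells from E14.5 to E17.5, and in 7.87% of 127 SGN-like cells at E14.5 (95% Wilson interval 4.33% to 13.9%), 10.49% of 162 at E15.5, 23.0% of 765 at E16.5 and 10.0% of 70 at E17.5. *Jag2* was read in 43.3% of SGN-like cells at E14.5, 59.3% at E15.5, 81.6% at E16.5, 78.6% at E17.5 and 82.4% at E18.5, against 2.73% to 9.35% of glia-like cells up to E17.5. Before thinning the share for *Notch1* was 93.7% to 96.1% in glia-like cells over those stages and 11.5% in SGN-like cells at E14.5, and that for *Jag2* was 43.8% at E14.5 and 87.1% at E16.5. Cells with fewer reads were left out, which kept 127 of 130 SGN-like and 203 of 211 glia-like cells at E14.5. In later SGN-like cells *Notch1* was read more widely. Before thinning it was read in 206 of 325 cells of E18.5 replicate 1, and in 242 of 376 and 89 of 125 cells at P3. Summed glial markers stood at 2318 CPM or more in those sums. In E16.5 replicates 1 and 2, with 621 and 505 CPM of them, it was read in 101 of 353 and 88 of 358 cells. The level of *Jag2* in the sums changed by -0.08 ± 0.23 from E14.5 to E16.5 (edgeR, adjusted p = 0.857), while the share of cells with a read went from 43.3% to 81.6%, a pair of values that was not tested over plates. Intervals cover counting error only, since reads without molecular identifiers are not independent molecules.

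**Figure D3:**
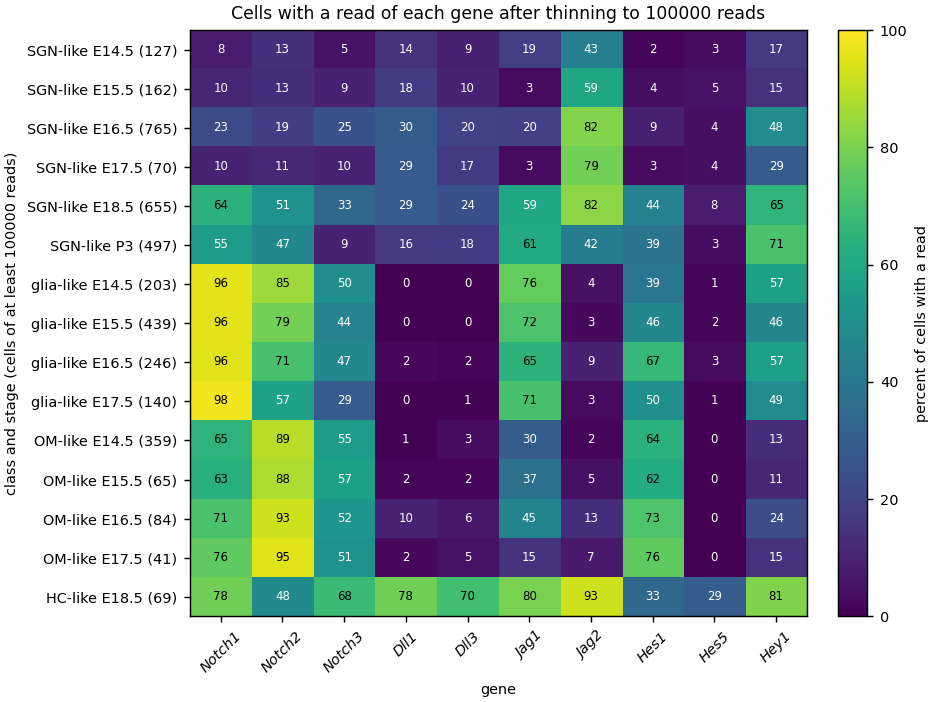
Percent of cells with at least 1 read of a gene (columns) after thinning to 100000 reads per cell, for each class and stage with enough cells (rows, with the number of cells), from 0 to 100. *Notch1* was over 95% in every glia-like row, and *Hes5* reached 29.0% in HC-like cells at E18.5 and stayed under 8% in every other row. The HC-like row includes the unnamed sub-cluster.

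OM-like and glia-like cells differed from each other in 4 of the 10 genes, 1 higher and 3 lower in OM-like cells, where 14.8% of all genes tested were called (8.01% higher, 6.83% lower). *Hey1* was lower by a log2 fold change of -2.03 ± 0.38 (adjusted p = 0.00101), *Jag1* by -2.31 ± 0.70 (adjusted p = 0.0294) and *Hes5* by -4.67 ± 1.31 (adjusted p = 0.0185). *Hey1* was called in every alternative. The call of *Jag1* was lost without either E14.5 plate or E15.5 replicate 1 (adjusted p = 0.0523 to 0.0725), and that of *Hes5*, at or under 1.30 CPM in both classes, without E15.5 replicate 2 (adjusted p = 0.0558) and on the SS2_20 plates alone (adjusted p = 0.0543).

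*Dll1* was higher in OM-like cells (4.71 ± 1.34, adjusted p = 0.0201), and this call rested on very few cells. On the 6 SS2_20 plates all *Dll1* reads of OM-like cells came from 1 cell in each of 4 plates (1 of 167 and 1 of 197 cells at E14.5, 1 of 38 at E15.5 replicate 2, and 1 of 46 at E17.5 with 302 reads), and there were 0 reads in the others. Without any 1 of those 4 plates the call was lost (adjusted p = 0.0516 to 0.0687). On the SS2_20 plates alone 7 of the 10 genes were called, where 19.5% of all genes were. *Notch1* was then lower in OM-like cells (-1.43, adjusted p = 0.0248), and *Notch2* (0.75, adjusted p = 0.032) and *Hes1* (0.83, adjusted p = 0.0237) were higher.

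HC-like cells carried mRNA of all 4 ligands. At E17.5 and in replicates 1 and 2 of E18.5, *Jag1* stood at 959, 537 and 373 CPM, *Jag2* at 176, 267 and 222 CPM, *Dll1* at 25.4, 156 and 144.04 CPM and *Dll3* at 59.9, 118 and 82.1 CPM. Each of these 4 ranges lay above that of embryonic SGN-like sums. For *Dll1* this was by little, since the 25.4 CPM of E17.5 stood next to 22.8 CPM in SGN-like cells of E14.5 replicate 1. *Notch1* stood at 362, 241 and 164 CPM and *Hey1* at 138, 78.8 and 104 CPM, also without overlap with SGN-like sums, whereas *Notch2*, *Notch3*, *Hes1* and *Hes5* overlapped. The share of all genes without overlap was not counted, so these ranges are a description. At E17.5, 4 HC-like cells lay in the unnamed sub-cluster described below and 1 in that with inner hair cell markers. The E17.5 values, here and in the tests below, thus come from a sum of mostly unnamed cells.

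Over all plates 4 of the 10 genes were called higher in HC-like than in SGN-like cells and 0 lower, where 27.9% of all genes tested were called (12.5% higher, 15.4% lower). They were *Jag1* (5.52 ± 1.10, adjusted p = 0.000779), *Hey1* (1.87 ± 0.55, adjusted p = 0.0144), *Notch1* (3.12 ± 1.05, adjusted p = 0.0302) and *Dll3* (3.32 ± 1.14, adjusted p = 0.0336). A limit of at least 10 cells per sum dropped the E17.5 HC-like sum and also glia-like or OM-like sums of 5 to 9 cells. With it 0 of the 10 genes were called, where 3026 of all 17527 genes tested were. Leaving out 1 plate gave 2 to 4 calls, where 3220 to 4786 genes of the whole table were called. *Dll1* differed by 2.53 ± 1.93 (adjusted p = 0.355) and *Jag2* by 2.06 ± 1.01 (adjusted p = 0.136). The E17.5 sum held 5 cells, of which 2 had 3 or more hair cell markers, and 96.8% of its *Dll1* reads came from 1 cell.

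Within the 2 plates of E18.5, all 10 genes were called, where 52.3% of all genes were. *Dll1* was then higher by 4.12 ± 0.15 (adjusted p = 3.14e-05), *Dll3* by 4.19 ± 0.24 (adjusted p = 0.000116), *Jag2* by 2.80 ± 0.12 (adjusted p = 5.3e-05), *Notch3* by 2.37 ± 0.20 (adjusted p = 0.000434) and *Hes5* by 3.46 ± 0.65 (adjusted p = 0.00804). *Notch2* (-1.34, adjusted p = 0.0179) and *Hes1* (-1.10, adjusted p = 0.0195) were lower than in SGN-like cells. Both turned when SGN-like cells under 100 CPM of glial markers were taken, where 51.9% of all genes were called, to 3.27 (adjusted p = 0.0182) for *Notch2* and 4.17 (adjusted p = 0.00903) for *Hes1*, and the other 8 kept their direction. Over all plates the same choice of SGN-like cells gave 7 calls, where 33.8% of all genes were called.

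The HC-like cells were not of 1 kind. At E18.5 sub-clusters with markers of inner (IHC-like, 2 and 7 cells in replicates 1 and 2), outer (OHC-like, 8 and 4) and vestibular hair cells (VHC-like, 13 and 13) were found, and a sub-cluster led by *Tectb*, *Gjb2*, *Lum* and *Tecta* (14 and 8 cells) stayed unnamed. *Jag1* stood at 1025 and 831 CPM in the unnamed cells, against 152 and 254 CPM in IHC-like, 231 and 275 CPM in OHC-like and 141 and 92.6 CPM in VHC-like cells. *Dll1* was lowest in the unnamed cells, at 53.2 and 41.7 CPM, against 308 and 288 CPM in OHC-like, 180 and 195 CPM in VHC-like and 141 and 110 CPM in IHC-like cells. *Dll3* reached 379 and 325 CPM in OHC-like cells and 31.0 to 86.9 CPM in all other sub-clusters. *Notch1* was highest in the unnamed cells, at 342 and 244 CPM. It was at 226 and 236 CPM in OHC-like, 138 and 113 CPM in VHC-like and 30.8 and 90.9 CPM in IHC-like cells. *Hey1* was also highest in the unnamed cells, at 117.9 and 168.1 CPM. It was at 55.4 and 105.8 CPM in OHC-like, 45.6 and 64.2 CPM in VHC-like and 36.2 and 78.6 CPM in IHC-like cells. All these values are from E18.5. At E17.5, 4 HC-like cells were unnamed and 1 was IHC-like.

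Reads of *Hes5* came from 16 of 37 and 15 of 32 HC-like cells at E18.5, with 15.8% and 46.2% of them in 1 cell. After thinning it was read in 29.0% of 69 HC-like cells at E18.5 (95% Wilson interval 19.6% to 40.6%). In replicate 2, 193 of the 251 *Hes5* reads came from the 8 unnamed cells, at 55.9 CPM. IHC-like, OHC-like and VHC-like cells of that plate were at 14.49, 8.81 and 3.13 CPM. In replicate 1, 36 of the 76 reads came from the 14 unnamed cells, at 7.42 CPM, below OHC-like cells at 11.17 CPM. These sub-cluster values are a description of 2 plates. The named sub-clusters alone left 1 HC-like cell at E17.5, too few for a sum, so the HC-like sums were then those of E18.5. In that fit only *Notch3* was called (2.33, adjusted p = 0.0362), with *Jag1* at 2.06 (adjusted p = 0.170). Of all 17836 genes tested there, 4167 were called.

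**Figure D4:**
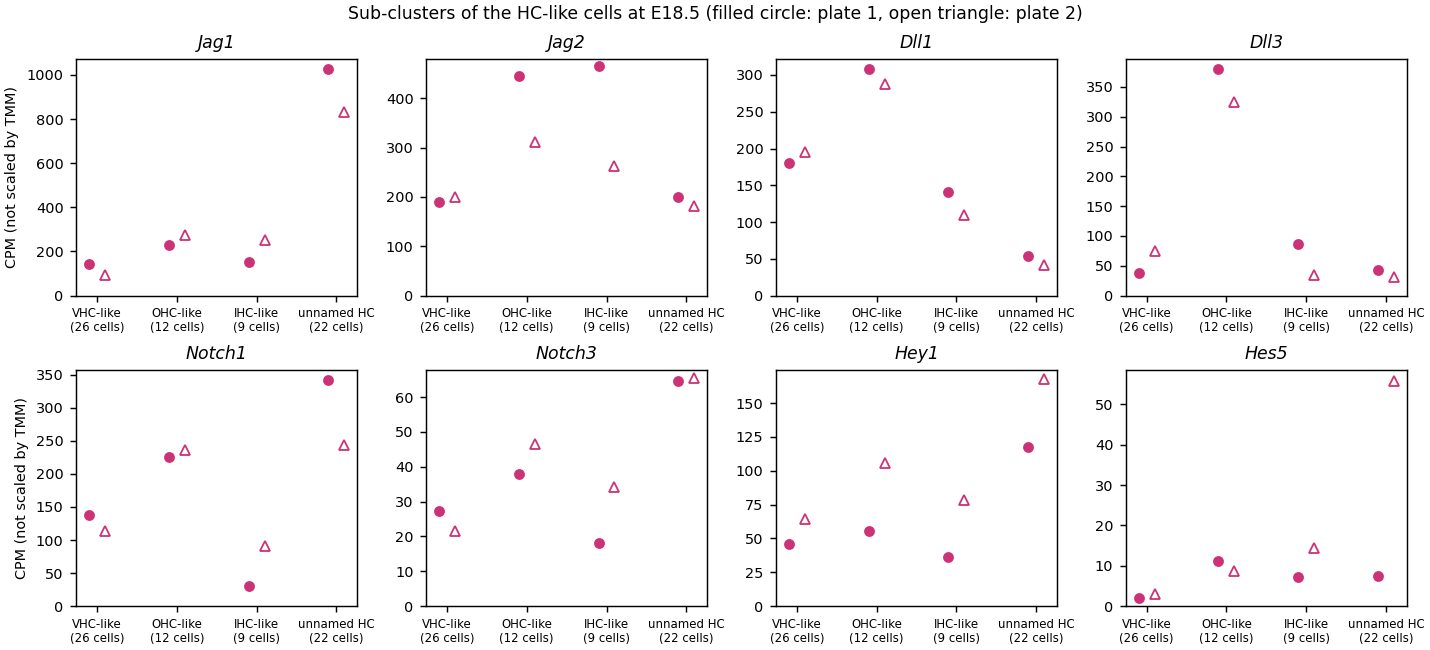
Levels of 8 of the 10 genes (all but *Notch2* and *Hes1*) in the HC-like sub-clusters at E18.5, 1 point per plate, in CPM without TMM scaling. *Jag1* was at 1025 and 831 CPM in the unnamed sub-cluster and at 275 CPM or less in the named ones.

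The second question was how the pathway changed in neurons with age. From E14.5 to E16.5 2 of the 10 genes rose in SGN-like cells and 0 fell, where 14.9% of all 17847 genes tested were called (8.85% higher, 6.06% lower). *Hey1* was at 10.1 and 15.2 CPM at E14.5 and at 32.8, 30.4 and 21.3 CPM at E16.5, a log2 fold change of 1.17 ± 0.27 (adjusted p = 0.0168). *Notch3* was at 0.656 and 2.38 CPM and then at 8.996, 7.94 and 5.94 CPM, a change of 2.34 ± 0.58 (adjusted p = 0.0225). Both groups were apart for either gene. The E14.5 plates and E16.5 replicate 3 are labelled SS2_20, and E16.5 replicates 1 and 2 SS2_18, so plate series and age are partly mixed here. Replicate 3 had the lowest E16.5 value for both genes. With SGN-like cells under 100 CPM of glial markers *Hey1* (0.83, adjusted p = 0.263) and *Notch3* (2.14, adjusted p = 0.0575) were no longer called, while 12.2% of all genes were.

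*Jag1* took another course in those cells. It stood at 18.9 and 6.05 CPM at E14.5, 0.348 and 0.956 CPM at E15.5, 1.94, 1.40 and 1.81 CPM at E16.5, and 0.623 and 0.445 CPM at E18.5. Both E14.5 plates lay above all later ones, and the log2 fold change from E14.5 to E16.5 was -2.86 (adjusted p = 0.0479), against -0.48 ± 0.68 (adjusted p = 0.674) over all SGN-like cells. At E14.5 its reads came from 16 of 69 and 10 of 61 cells when all SGN-like cells were taken. Cells under 100 CPM of glial markers numbered 65 and 57 there, and those with a read among them were not counted.

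From E16.5 to E18.5 *Jag1* and *Hes1* rose over all SGN-like cells, where 5.13% of all genes were called (2.84% higher, 2.29% lower). The E18.5 plates are labelled SS2_19 and those of E16.5 SS2_18 or SS2_20, so the plate series and age cannot be told apart here. *Jag1* went from 13.6, 11.6 and 1.73 CPM to 64.4 and 58.1 CPM (2.74 ± 0.68, adjusted p = 0.0447), and *Hes1* from 1.65, 1.84 and 1.11 CPM to 18.8 and 20.9 CPM (3.67 ± 0.68, adjusted p = 0.0128). *Notch1* was at 93.1 and 77.6 CPM at E18.5 after 23.7, 22.8 and 2.35 CPM (2.37 ± 0.84, adjusted p = 0.153). Glial markers moved with all 3 genes. Across SGN-like cells of the E18.5 plates (325 and 335 cells), Spearman's rho with the glial factor *Sox10* was 0.86 and 0.87 for *Notch1*, 0.82 and 0.84 for *Jag1*, 0.71 and 0.73 for *Hes1* and -0.17 and -0.10 for *Jag2*. With SGN-like cells under 100 CPM of glial markers both calls turned in direction and were lost, while 3.15% of all genes were called (-1.68, adjusted p = 0.458 for *Jag1* and -1.37, adjusted p = 0.69 for *Hes1*), and *Notch1* stood at 1.45 and 2.36 CPM at E18.5.

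**Figure D5:**
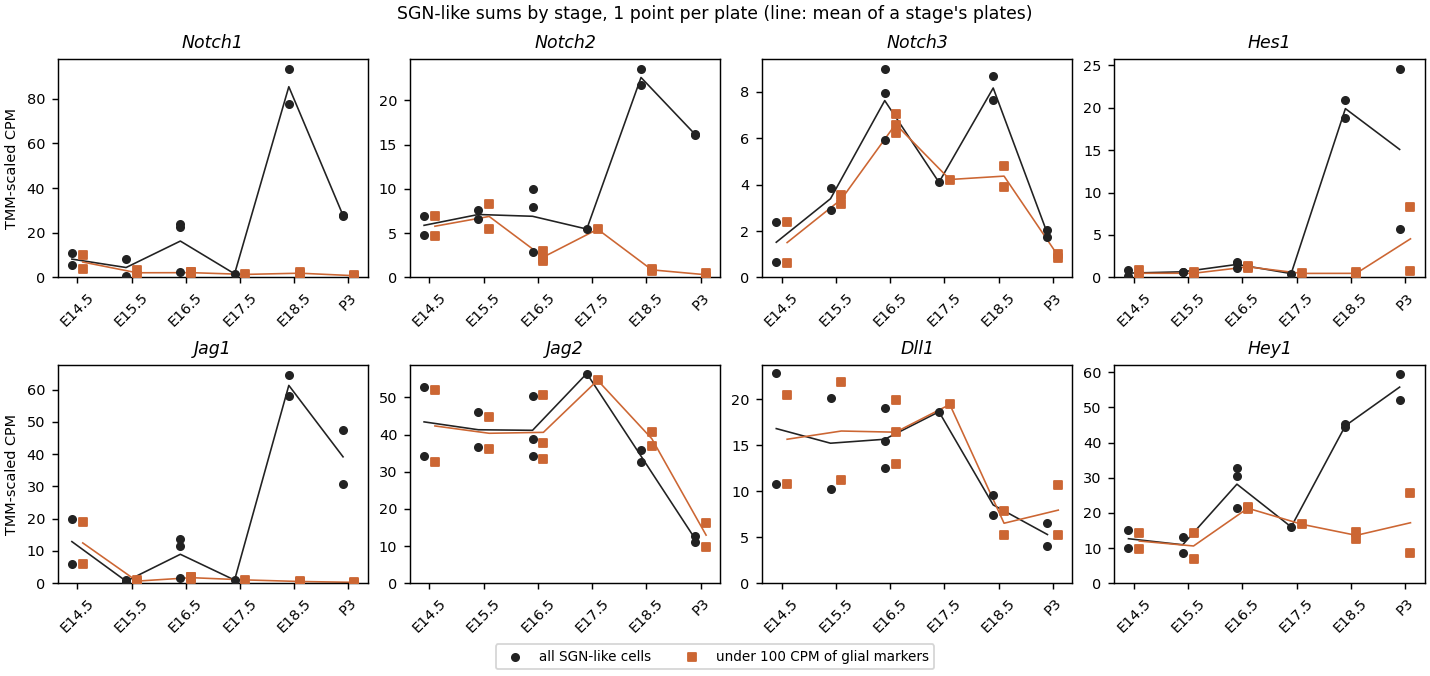
Levels of 8 of the 10 genes (all but *Dll3* and *Hes5*) in SGN-like cells by stage, 1 point per plate, TMM-scaled CPM on a linear axis. Black takes all SGN-like cells and orange those under 100 CPM of glial markers. For *Jag1* the points part at E18.5, with 64.4 and 58.1 CPM in black and 0.623 and 0.445 CPM in orange, while for *Jag2* they stay together.

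From E18.5 to P3 *Jag2* and *Notch3* fell, where 24.8% of all genes were called (12.8% higher, 12.1% lower). *Jag2* was at 35.8 and 32.6 CPM at E18.5 and at 12.8 and 11.03 CPM at P3, a log2 fold change of -1.50 ± 0.25 (adjusted p = 0.00166). It was -1.58 (adjusted p = 0.00341) with SGN-like cells under 100 CPM of glial markers, where 23.8% of all genes were called. *Notch3* went from 7.64 and 8.69 CPM to 2.06 and 1.73 CPM (-2.09 ± 0.58, adjusted p = 0.0238), and this call was lost when any of the 4 plates was left out. All P3 plates are labelled SS2_15 and both E18.5 plates SS2_19, so the plate series and age cannot be told apart.

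In glia-like and OM-like cells no gene of the whole table was called between E14.5 and E16.5/E17.5 by edgeR, at 1593 of 16134 and 592 of 14341 genes with an unadjusted p under 0.05. Without the 17 glia-like cells of E16.5 replicate 1 edgeR called 107 genes in glia-like cells, and with no filter on low counts it called 2 and 1. DESeq2 called 522 and 102 genes. *Notch2* in glia-like cells was at 164 and 200 CPM at E14.5 and at 70.1, 115 and 84.0 CPM in E16.5 replicates 1 and 3 and at E17.5, a log2 fold change of -1.04 ± 0.22 (adjusted p = 0.368, and 0.00323 by DESeq2). *Notch1* in glia-like cells changed by -0.14 ± 0.34 (adjusted p = 0.918).

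Another 46 genes of the pathway were listed, from receptor processing to corepressors. In glia-like against SGN-like cells, where 46.4% of all genes were called, 15 were higher and 15 lower, and the median log2 fold change was 0.23 against 0.00 over all genes. The neuronal ligand-like gene *Dner* (-6.67, adjusted p = 0.000442) and *Dlk2* (-5.39, adjusted p = 0.000189) were lower and the HEY factors *Hey2* (5.38, adjusted p = 0.00089) and *Heyl* (4.89, adjusted p = 2.69e-05) higher. In OM-like against SGN-like cells 11 were higher and 9 lower, a share near the 46.0% called over all genes, led by *Dlk1* (6.13, adjusted p = 0.000198), a soluble or membrane-bound ligand-like protein. In HC-like against SGN-like cells, where 27.9% of all genes were called, 15 were higher and 6 lower, and the first were the sugar transferases *Lfng* (6.85, adjusted p = 0.000699) and *Mfng* (6.65, adjusted p = 0.0124), which modify Notch receptors. Between OM-like and glia-like cells, where 14.8% of all genes were called, 7 were higher in OM-like cells and 4 lower, among the latter *Hey2* (-5.65, adjusted p = 0.00269).

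In SGN-like cells 4 of the 46 rose and 7 fell from E14.5 to E16.5, where 14.9% of all genes were called, 5 of the 7 in the group of nuclear complex and corepressor genes with *Tle1* (-3.13, adjusted p = 4.32e-05) and *Tle3* (-2.69, adjusted p = 4.85e-05). From E16.5 to E18.5 4 rose and 1 fell, where 5.13% of all genes were called, with *Hey2* (3.88, adjusted p = 0.0407) and *Heyl* (2.28, adjusted p = 0.0237), both higher in glia-like cells, among those that rose. From E18.5 to P3 1 rose and 16 fell, where 24.8% of all genes were called, with a median of -0.39 over the list and -0.09 over all genes. *Nrarp*, a feedback inhibitor of the pathway, was the 1 that rose (2.99, adjusted p = 0.0171).

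Over the 31 class sums, the gene most like *Notch1* in level was *Sypl* (Pearson's r = 0.957), that most like *Notch2* was *Serpinh1* (0.960), a collagen chaperone, and that most like *Notch3* was *Slc39a8* (0.937). For the ligands these were *Nipal2* for *Dll1* (0.881), *Map9* for *Dll3* (0.880), *Cd9* for *Jag1* (0.941) and *Srrm4* for *Jag2* (0.916), the last a splicing factor of neurons and hair cells. For the targets they were *Slc39a1* for *Hes1* (0.951), *Il4* for *Hes5* (0.812) and *Nedd9* for *Hey1* (0.889). Sums of a class share their plates and cell type, and these values describe the 31 sums alone.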

How the data were processed

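The authors sorted cells into 384-well plates, aligned reads with STAR in 2-pass mode to mm10 with ERCC controls, counted them with featureCounts, and deposited raw read counts per gene and well. The strand setting is not given in the sources used here. A further 384 wells of no listed sample were not used. Wells with more than 1000 genes and under 5% ERCC reads were kept, with a median of 232473 to 1092427 counts per cell by plate. Cells were clustered per stage with Scanpy 1.11.5 and leidenalg 0.10.2 (2000 variable genes, 30 components, 30 neighbours, resolution 1), without Notch genes and the study's glial gene list, which was chosen on these samples and holds 5 of the 10 genes. How clusters were named was changed once their leading genes had been seen, and no doublet caller was run. Counts were summed per plate and class (5 or more cells, 3 for HC-like, 10 for stage comparisons of glia and mesenchyme) and tested with edgeR 4.0.16 (TMM, filterByExpr, quasi-likelihood, plate as a block between classes, since classes of a plate come from the same pooled animals, although the deviations of SGN-like and other sums of a plate correlated at only -0.06 to 0.24). DESeq2 1.42.0 was an alternative. Scripts were tested on simulated data. Genes were named as the 10 members and, of the 46 others, up to 5 called per comparison by size of change. The members and lists were chosen with earlier results of these data known.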

Additional observations from a re-analysis of the deposited data

Results flagged for a closer look

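Of 30 sets of plates examined for a sample far from the others, 3 had one, where chance gives about 1 in 20. *Notch1* in OM-like cells was at 10.3 CPM in E16.5 replicate 2 (10 cells), with the next lowest plate at 167.6 CPM. *Jag1* in OM-like cells was at 93.7 CPM in E18.5 replicate 1 (6 cells), with the next highest at 49.5 CPM. That sum carried 4211 CPM of glial markers, and their part in the value was not tested. *Hes5* in OM-like cells was at 0.184 CPM in E14.5 replicate 1 and at 0 elsewhere, so that any read would have set it apart.

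Cells that stayed unnamed, and entered no comparison, exceeded the highest class sum for some genes. A cluster of 12 cells at E14.5, led by *Oc90*, *Cldn6* and *Epcam*, held *Hes5* at 27.6 CPM and *Hey1* at 517 CPM, against highest class sums of 22.2 and 171 CPM. A cluster of 13 cells at E15.5, led by *Otog*, *Cldn9* and *Cldn6*, held *Notch1* at 714 CPM, *Notch3* at 121 CPM, *Hes5* at 31.6 CPM and *Hey1* at 354 CPM. A cluster of 87 cells at E17.5 and E18.5, led by *Ednrb*, *Col1a2* and *Col3a1*, held *Hey1* at 188 CPM, *Notch1* at 522 CPM and *Jag1* at 148 CPM. Over the 78 unnamed cells of E17.5 the median of summed glial markers was 6555 CPM. Glia-like sums other than that of E18.5 replicate 1 had medians of 4887 to 10046 CPM. The glia-like sum of E17.5 thus left out cells with glial markers. These values have no replicate check.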

How the results depend on the processing

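Calls in glia-like against SGN-like cells held for 9 genes whichever plate was left out (9 to 9). Leaving out 1 plate gave 6 to 8 calls for OM-like against SGN-like cells, 2 to 4 for HC-like against SGN-like, 2 to 4 for OM-like against glia-like, 0 to 2 from E14.5 to E16.5, 0 to 3 from E16.5 to E18.5, 1 to 2 from E18.5 to P3 and 0 to 0 for the stages of glia and mesenchyme.

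The 4 calls in HC-like cells became 7 with no replicate block (no plate pairing), 0 with at least 10 cells per sum and 10 on E18.5 plates. In alternatives chosen after seeing the data they became 7 with SGN-like cells under 100 CPM of glial markers and 10 with these cells on E18.5 plates. Others of that kind gave 2 with cells of 3 or more hair cell markers and 1 with the named sub-clusters. Both left too few HC-like cells for a sum at E17.5. The 4 calls of OM-like against glia-like cells became 2 with cells of more than 3000 genes and 7 on the SS2_20 plates. In SGN-like cells the 2 calls from E14.5 to E16.5 became 4 at or below each plate's median of glial markers and 1 under 100 CPM of them, the 2 from E16.5 to E18.5 became 1 with more than 3000 genes, 1 at or below the median and 0 under 100 CPM, and the 2 from E18.5 to P3 became 1 at or below the median. DESeq2 called 1 gene between glia stages. *Notch2* in HC-like cells turned to 1.51 at or below the median, 2.38 under 100 CPM and 3.27 with E18.5 plates as well, and *Hes1* to 3.12 and 4.17 in the last 2. *Notch2* from E14.5 to E16.5 turned to -2.43 at or below the median, and *Jag1* and *Hes1* from E16.5 to E18.5 to -1.68 and -1.37 under 100 CPM. The cause was not tested. Over all genes, 4711 calls of 16859 tested in HC-like cells became 3026 of 17527 with at least 10 cells per sum. They became 8432 of 16109 on E18.5 plates and 7819 of 15079 with SGN-like cells under 100 CPM there. With 3 or more hair cell markers there were 3776 of 17824, and with the named sub-clusters 4167 of 17836. DESeq2 raised 2502 calls of OM-like against glia-like cells to 3792 and 2661 from E14.5 to E16.5 to 4131. The 915 calls from E16.5 to E18.5 became 2036 by DESeq2, 426 at or below the median and 514 under 100 CPM, and ran from 85 to 1361 when 1 plate was left out. Leaving out 1 plate gave 0 to 107 called genes between glia stages.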

Other observations

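Both glia and mesenchyme held clusters with unlike levels of the pathway's targets. Among the 6 OM-like clusters of E14.5, *Hes1* ran from 26.9 to 288 CPM, *Hey1* from 0.592 to 134 CPM, *Notch1* from 148 to 324 CPM and *Notch2* from 116 to 403 CPM. The cluster with the lowest *Hes1* had the highest *Notch2* and 2.6 CPM of the proliferation gene *Mki67*, against 107 to 369 CPM in the others. Over glia-like clusters of all stages *Notch1* stayed between 479 and 628 CPM, while *Hes1* ran from 22.3 to 119 CPM and *Hey1* from 87.3 to 208 CPM. Clusters mix plates and have no replicate check.

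The highest *Hes5* value among glia-like, OM-like and unnamed clusters, 309 CPM, was in 8 unnamed cells at E17.5 and E18.5 led by *Olig1*, *Bcan* and *Fabp7*, which held *Jag1* at 8.5 CPM and *Notch1* at 561 CPM.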
